A study of Mus musculus with 6 samples.

Results

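Membrane-anchored serine proteases and the Kunitz inhibitors that restrain them were read in mouse epidermal keratinocytes lacking Ovol factors. The set held 8 genes chosen by symbol, 6 proteases (St14, Prss8, Tmprss2, Tmprss4, Tmprss13 and Tmprss11e) and 2 inhibitors (Spint1 and Spint2), among 19938 named genes on the arrays. The choice was made with earlier results of these data known. Each of the 8 was measured by 1 probe set annotated to that symbol alone.

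RNA from keratinocytes of C57BL/6 embryos at E18.5 was hybridised to 6 one-colour Affymetrix arrays, 2 per group, after 2 to 5 days in culture without added calcium. The Ovol1/2 DKO arrays came from Ovol1-/- mice carrying Ovol2flox/- with K14-Cre, a recombinase driven by a keratin promoter of basal keratinocytes. Loss of the floxed Ovol2 allele is thus limited to cells with that promoter active, while the other Ovol2 allele is null by genotype. The Ovol1 KO-labelled arrays came from Ovol1-/- mice. Control arrays came from mice with Ovol2flox/+ and either Ovol1+/- or K14-Cre, so the controls also carried 1 floxed Ovol2 allele. In controls with K14-Cre that allele can be lost in cells with the promoter active. Each array pooled 2 mice, and arrays of a group are called biological replicates in the labels.

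These proteases sit on the cell surface by a transmembrane anchor or a lipid (GPI) anchor. Matriptase, the product of St14, and prostasin, the product of Prss8, form an activation cascade in the epidermis that is needed for the skin barrier. The Spint1 and Spint2 products, HAI-1 and HAI-2, are membrane-bound Kunitz inhibitors of matriptase and prostasin, and loss of Spint1 or Spint2 in mice leaves matriptase activity unchecked. Ovol1 and Ovol2 are zinc finger transcription factors of epithelia.

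Promoter sequences are shown for the inhibitor pair, which both fell against the Ovol1 KO-labelled arrays, and for Tmprss2, the only member protease with an entry in the RefSeq promoter table (GRCm38.p6). Each runs 5′ to 3′ from 250 bases before to 50 bases after the start of transcription. Capitals mark CAGGTG, an E-box that Zeb repressors are known to bind, searched on both strands. The windows are chr7:29281928-29282227, minus strand, for Spint2, chr2:119237110-119237409, plus strand, for Spint1, and chr16:97611146-97611445, minus strand, for Tmprss2. For Spint2 and Tmprss2 the start used lies inside the annotated span of the gene.
Spint2: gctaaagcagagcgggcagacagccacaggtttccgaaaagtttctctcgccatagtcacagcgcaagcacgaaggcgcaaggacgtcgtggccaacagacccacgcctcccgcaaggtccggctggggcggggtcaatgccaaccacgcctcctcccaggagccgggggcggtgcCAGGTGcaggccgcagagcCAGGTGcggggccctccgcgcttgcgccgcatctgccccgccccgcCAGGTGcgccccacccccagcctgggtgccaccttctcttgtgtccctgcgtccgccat
Spint1: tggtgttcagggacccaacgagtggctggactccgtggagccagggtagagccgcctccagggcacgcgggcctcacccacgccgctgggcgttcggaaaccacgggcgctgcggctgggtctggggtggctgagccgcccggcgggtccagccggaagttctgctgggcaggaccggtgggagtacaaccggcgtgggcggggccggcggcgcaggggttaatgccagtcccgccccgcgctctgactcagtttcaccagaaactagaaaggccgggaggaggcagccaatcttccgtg
Tmprss2: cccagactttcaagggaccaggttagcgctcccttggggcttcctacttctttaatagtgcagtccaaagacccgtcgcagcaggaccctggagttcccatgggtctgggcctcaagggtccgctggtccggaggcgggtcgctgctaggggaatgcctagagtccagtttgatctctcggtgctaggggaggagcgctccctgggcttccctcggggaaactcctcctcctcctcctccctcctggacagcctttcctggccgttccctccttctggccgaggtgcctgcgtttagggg

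The Spint2 window held 3 copies of CAGGTG, whose first bases lie at positions -74, -55 and -9 relative to the start, all on the strand of the gene. All 3 copies lie inside the annotated span of Spint2. The Spint1 and Tmprss2 windows held none. Among 32851 mouse promoter windows of the same length, 20.2% held CAGGTG on either strand. The Ovol core motif CCGTTA, present in 2.76% of windows, and AACNGGTT, a motif of Grainyhead-like epithelial factors present in 2.09%, were in none of the 3 windows. A match describes letters in a window, not binding. The G and C content was 69.3% for Spint2, 69.7% for Spint1 and 62.3% for Tmprss2.

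The targeted genes, the depth of the arrays and the cell type markers were read before the members. Ovol1 stood at 5.96 and 6.22 (log2 of intensity + 16, the scale used throughout) in Ovol1/2 DKO, at 10.75 and 9.80 in the Ovol1 KO-labelled arrays, and at 9.64 and 9.95 in Control. The Ovol1 KO-labelled arrays thus did not show a lower Ovol1 signal, and every direction drawn from them rests on that label. Where either probe set sits relative to the deletions is unknown. Ovol2 read 7.63 and 7.50 in Ovol1/2 DKO, 7.88 and 8.38 in the Ovol1 KO-labelled arrays, and 8.37 and 6.97 in Control. All samples carry a female label, yet Xist, the RNA that coats the silenced X, was near background in replicate 1 labelled Ovol1 KO (4.54) and in Control replicate 1 (4.43). Eif2s3y, a Y-linked gene, read 13.80 in that labelled Ovol1 KO array. It read 4.85 in Control replicate 1, which thus showed neither signal. Over all genes the Ovol1/2 DKO arrays correlated with Control replicate 1 at 0.963 and 0.953 and with Control replicate 2 at 0.920 and 0.933, while the Control arrays correlated with each other at 0.969. Basal keratins were bright in all groups, with Krt14 at a mean of 13.37 in Ovol1/2 DKO and 13.30 in Control. Precision is limited by the number of arrays, with 0.245 as the median standard error of a difference over all genes.

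Ovol1/2 DKO keratinocytes had less signal than Control for matriptase, its inhibitor Spint1 and 3 further surface proteases. Of the 8 genes, 5 fell in Ovol1/2 DKO (St14, Tmprss2, Tmprss13, Tmprss11e and Spint1) and none rose, by limma at an adjusted p under 0.05 over all genes. Over all 19938 genes, 1.40% fell and 0.622% rose by the same rule, 2.02% in all. The median log2 difference of the 8 was -2.80, against 0.033 over all genes. Since the members were chosen with earlier results of these data known, such contrasts describe the set and do not test it. Both Ovol1/2 DKO arrays lay below both Control arrays for all 8 genes, as they did for 18.1% of all genes. The count of 5 fell most when either Ovol1/2 DKO array was left out and with an offset of 64 (to 2). It fell by less without either Ovol1 KO-labelled array, without Control replicate 2 and with only the groups compared. It rose without Control replicate 1, with dim genes left out (to 6) and with an intensity trend (to 7). The count rose most when the 2 arrays that lacked Xist signal were left out. That last fit had 1 Control and 1 Ovol1 KO-labelled array, so its spread came from the Ovol1/2 DKO arrays alone. In bulk RNA, fewer cells of a type and less RNA per cell cannot be told apart.

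**Figure D1:**
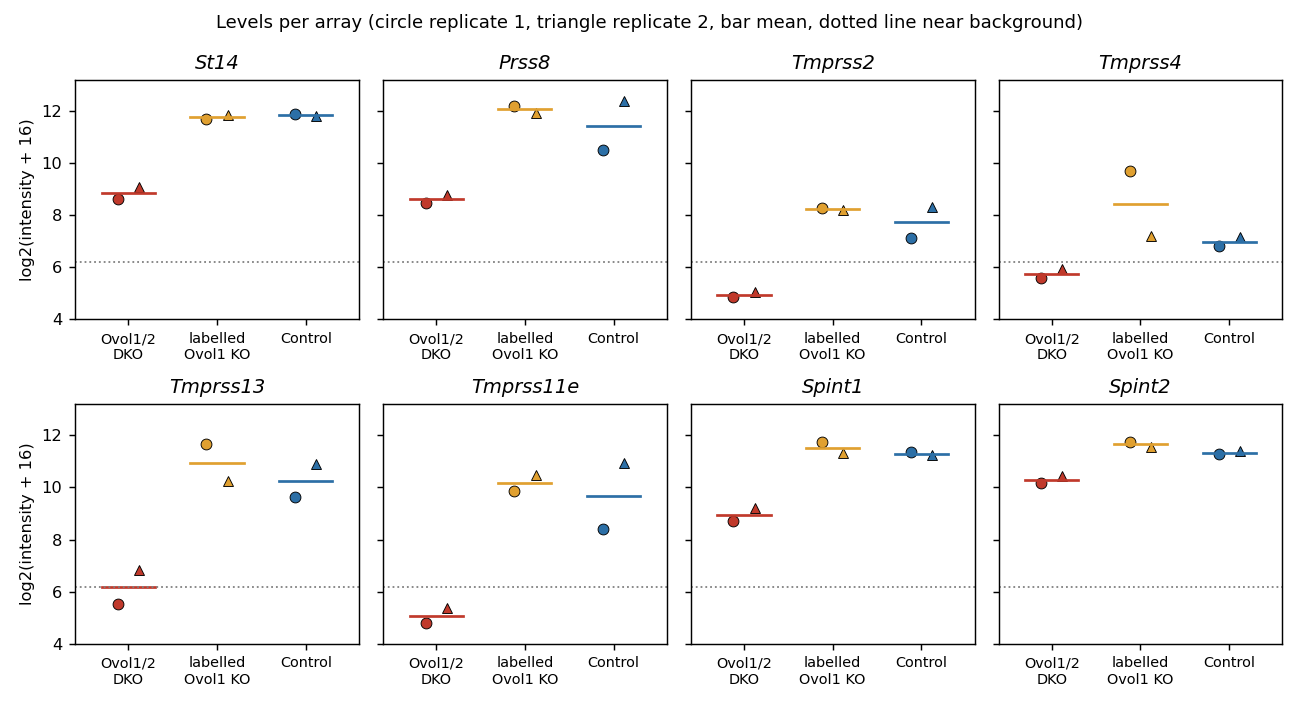
Level of each gene on each array, as log2(intensity + 16), with Ovol1/2 DKO, labelled Ovol1 KO and Control from left to right in every panel; bars are means of 2 arrays and the dotted line is the highest array median of unnamed probe sets (6.20). Both Ovol1/2 DKO arrays sit lowest in all 8 panels, and the Control arrays lie apart for Prss8, Tmprss2, Tmprss13 and Tmprss11e.

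St14 encodes matriptase, the transmembrane protease at the head of the epidermal cascade. It stood at 8.62 and 9.10 in Ovol1/2 DKO, at 11.69 and 11.85 in the Ovol1 KO-labelled arrays, and at 11.88 and 11.79 in Control. The Ovol1/2 DKO arrays lay well below the 4 others, which lay close together. St14 fell 7.86-fold against Control (log2 difference -2.97, SE 0.23, 95% interval -3.52 to -2.43, n = 2 per group, limma adjusted p = 0.00476). It ranked 23 of 19938 genes by p. Over the 15 alternatives tried, the difference stayed between -3.21 and -2.74 and passed in each.

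Prss8 encodes prostasin, the GPI-anchored protease that matriptase activates. It read 8.47 and 8.77 in Ovol1/2 DKO, 12.21 and 11.91 in the Ovol1 KO-labelled arrays, and 10.51 and 12.37 in Control. Control replicate 1 lay between the Ovol1/2 DKO arrays and the rest, 1.86 below Control replicate 2. The difference from Control was -2.82 (SE 0.55, 95% interval -4.14 to -1.50) and did not pass (limma adjusted p = 0.0669). Without Control replicate 1 it was -3.75, and without Control replicate 2 it was -1.89. Neither fit counts the spread between Control arrays. With both Control arrays kept, it passed with dim genes left out (limma adjusted p = 0.0463) and with an intensity trend in the variance (limma adjusted p = 0.0300).

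Tmprss2, a transmembrane protease best known for cleaving viral surface proteins in the airway, had 4.85 and 5.05 in Ovol1/2 DKO, 8.28 and 8.19 in the Ovol1 KO-labelled arrays, and 7.12 and 8.33 in Control. Both Ovol1/2 DKO values were under 6.20, which is the highest array median of unnamed probe sets and is termed near background. Tmprss2 fell against Control (log2 difference -2.77, SE 0.38, limma adjusted p = 0.0215), by an amount that depended on the offset added before the log and on the Control array. The difference was -3.62 with an offset of 1 and -1.74 with an offset of 64, where the call was lost (limma adjusted p = 0.115). It was -3.38 without Control replicate 1 and -2.17 without Control replicate 2. The call was also lost without Ovol1/2 DKO replicate 1 or 2 (limma adjusted p = 0.113 for each).

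Tmprss13, a transmembrane protease of stratified epithelia, read 5.53 and 6.83 in Ovol1/2 DKO, 11.67 and 10.23 in the Ovol1 KO-labelled arrays, and 9.62 and 10.88 in Control. All 3 groups spread by more than 1 log2 unit between their arrays, yet the lowest Control array stood well above both Ovol1/2 DKO arrays. Tmprss13 fell against Control (log2 difference -4.07, SE 0.66, limma adjusted p = 0.0360), with an Ovol1/2 DKO mean of 6.18 that was itself near background. The call was lost without Ovol1/2 DKO replicate 1 (-3.42, limma adjusted p = 0.151), Ovol1/2 DKO replicate 2 (-4.72, limma adjusted p = 0.0775) or Control replicate 2 (-3.44, limma adjusted p = 0.135), and with an offset of 64 (-3.36, limma adjusted p = 0.119). Without Control replicate 1 the difference was -4.71.

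Tmprss11e, also called DESC1, had 4.80 and 5.37 in Ovol1/2 DKO, both near background, 9.85 and 10.49 in the Ovol1 KO-labelled arrays, and 8.42 and 10.93 in Control. Control replicate 1 was 2.51 below replicate 2, the widest gap between Control arrays among the 8 genes. Tmprss11e fell against Control (log2 difference -4.59, SE 0.75, limma adjusted p = 0.0362), and the difference was -5.84 without Control replicate 1 and -3.34 without Control replicate 2. With an offset of 1 the difference was -5.44, and with an offset of 64 it was -3.42 and the call was lost (limma adjusted p = 0.170). Without an Ovol1/2 DKO array the call was lost (limma adjusted p = 0.167 without replicate 1 and 0.142 without replicate 2), as it was without either Ovol1 KO-labelled array (limma adjusted p = 0.0641 for each), which changes only the pooled spread.

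Tmprss4, a transmembrane protease that can activate the epithelial sodium channel, was dim in Control. It read 5.58 and 5.93 in Ovol1/2 DKO, 9.70 and 7.19 in the Ovol1 KO-labelled arrays, and 6.82 and 7.14 in Control. Only replicate 1 labelled Ovol1 KO, the array with Eif2s3y signal, was bright. The difference between Ovol1/2 DKO and Control was -1.23 (SE 0.72, 95% interval -2.95 to 0.50, limma adjusted p = 0.763). Without both arrays that lacked Xist signal, the difference was -1.39 and passed (limma adjusted p = 0.0216), in a fit with 1 Control array assumed to vary like the Ovol1/2 DKO arrays.

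Of the inhibitors, Spint1 stood at 8.71 and 9.19 in Ovol1/2 DKO, at 11.73 and 11.33 in the Ovol1 KO-labelled arrays, and at 11.35 and 11.24 in Control. Ovol1/2 DKO did not overlap the other groups. Spint1 fell 5.07-fold against Control (log2 difference -2.34, SE 0.25, 95% interval -2.94 to -1.74, limma adjusted p = 0.0109). It missed the threshold without Ovol1/2 DKO replicate 1 (log2 difference -2.10, limma adjusted p = 0.0616).

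Spint2, whose promoter window holds the 3 CAGGTG copies, had 10.16 and 10.42 in Ovol1/2 DKO, 11.75 and 11.55 in the Ovol1 KO-labelled arrays, and 11.27 and 11.39 in Control. The groups did not overlap, and the gap between Ovol1/2 DKO and Control was the smallest of the 8 genes. Its difference from Control was -1.04 (SE 0.21, 95% interval -1.53 to -0.54), which did not pass (limma adjusted p = 0.0700). With an intensity trend in the variance it did (limma adjusted p = 0.0403). Without both arrays that lacked Xist signal the difference was -1.10, in a fit with 1 Control array and a spread from the Ovol1/2 DKO arrays alone. The 95% intervals of Spint1 and Spint2 did not overlap, but the difference between the genes was not tested.

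The Control arrays held the members in 2 patterns. St14, Spint1, Spint2 and Tmprss4 differed little between Control arrays (-0.083, -0.12, 0.12 and 0.32 for replicate 2 minus replicate 1). Prss8, Tmprss2, Tmprss13 and Tmprss11e were lower in Control replicate 1 by 1.86, 1.20, 1.27 and 2.51. Suprabasal and granular markers, read on the same arrays, averaged 10.11 in Control replicate 1 and 10.44 in Control replicate 2.

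**Figure D2:**
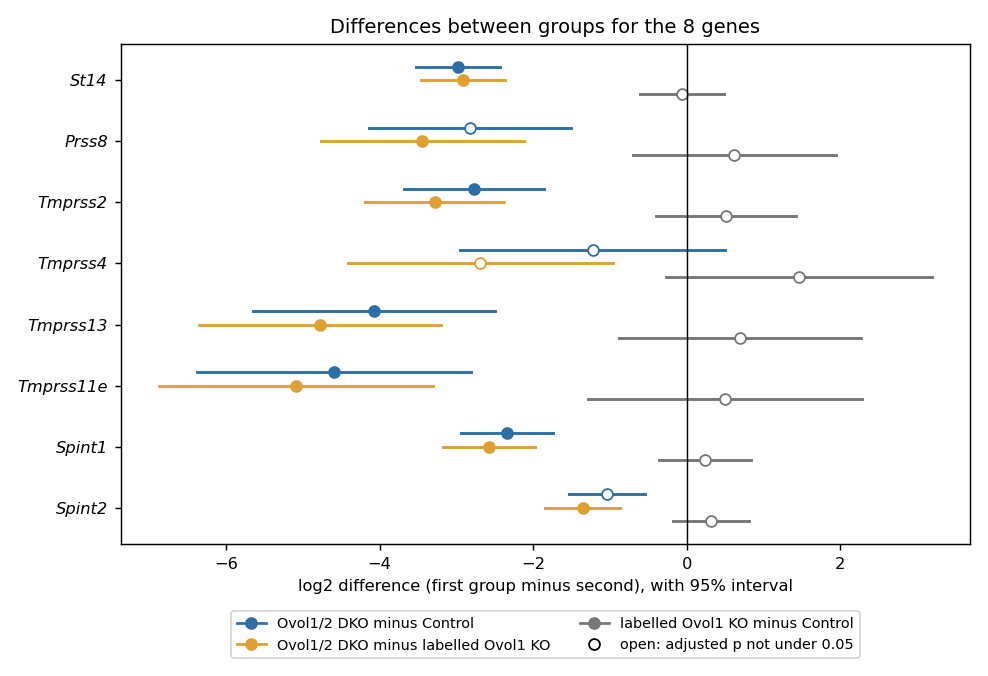
Log2 differences of the 8 genes with 95% intervals from the limma model, for Ovol1/2 DKO minus Control, Ovol1/2 DKO minus labelled Ovol1 KO and labelled Ovol1 KO minus Control; filled points have an adjusted p under 0.05. The first 2 comparisons lie below 0 for all 8 genes, and the third has no filled point.

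Ovol1/2 DKO was next set against the Ovol1 KO-labelled arrays, by the labels the loss of Ovol2 on an Ovol1-null background. By signal, Ovol1 itself was lower in Ovol1/2 DKO (log2 difference -4.18, SE 0.34, limma adjusted p = 0.00477). Ovol2 did not pass (-0.57, SE 0.45, limma adjusted p = 0.665). The members' differences here thus cannot be assigned to Ovol2. Of the 8 genes, 7 fell and none rose, and Tmprss4 did not pass. Over all genes 1.91% fell and 1.24% rose, 3.15% in all. The median log2 difference of the 8 was -3.10, against 0.019 over all genes. The contrast again describes a set chosen with earlier results known. This comparison shares its Ovol1/2 DKO arrays with the first, so both carry the same array deviations. The count of 7 fell most when either Ovol1/2 DKO array or replicate 1 labelled Ovol1 KO was left out, and with an offset of 64 (to 3). It fell by less without replicate 2 labelled Ovol1 KO. It rose when the 2 arrays that lacked Xist signal were left out. That fit had 1 Ovol1 KO-labelled array and a spread from the Ovol1/2 DKO arrays alone.

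St14 fell by 2.91 on the log2 scale (SE 0.23, limma adjusted p = 0.00445) and Prss8 fell by 3.44 (SE 0.55, limma adjusted p = 0.0256). The transmembrane proteases Tmprss2 (log2 difference -3.29, SE 0.38), Tmprss13 (-4.77, SE 0.66) and Tmprss11e (-5.09, SE 0.75) also fell (limma adjusted p = 0.0106, 0.0168 and 0.0204). Both inhibitors passed, Spint1 at -2.58 (SE 0.25, limma adjusted p = 0.00752) and Spint2 at -1.36 (SE 0.21, limma adjusted p = 0.0223). Tmprss4 differed by -2.69 (SE 0.72, limma adjusted p = 0.132). It differed by -3.95 without replicate 2 labelled Ovol1 KO and by -1.43 without replicate 1, in fits that do not count the spread between those arrays.

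St14 and Spint1 kept the call with any 1 array left out of this comparison, at adjusted p up to 0.0322 and 0.0441. Prss8 and Tmprss11e lost it without any 1 of the 4 arrays compared (limma adjusted p from 0.0828 to 0.135 for Prss8 and from 0.0841 to 0.102 for Tmprss11e). Tmprss2 and Spint2 lost it without Ovol1/2 DKO replicate 1 (limma adjusted p = 0.0578 and 0.173), Ovol1/2 DKO replicate 2 (0.0558 and 0.118) or replicate 1 labelled Ovol1 KO (0.0667 and 0.0950). Tmprss13 lost it without Ovol1/2 DKO replicate 1 (0.0768) or replicate 1 labelled Ovol1 KO (0.0830), and its difference ran from -5.49 to -4.05 with 1 array left out. With an offset of 64, Prss8, Tmprss2, Tmprss13 and Tmprss11e lost the call (0.0825, 0.0561, 0.0631 and 0.103), at log2 differences of -3.29, -2.15, -4.04 and -3.87.

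The third comparison set the Ovol1 KO-labelled arrays against Control. By genotype it is not the loss of Ovol1 alone, since Control mice carried Ovol1+/- or K14-Cre, with a floxed Ovol2 allele. None of the 8 genes passed, and 0 of 19938 genes did by limma. At an unadjusted p under 0.05 there were 0 of the 8 and 153 genes in all (0.767%). The log2 difference of St14 was -0.064 (SE 0.23, 95% interval -0.61 to 0.48), so a change of the size seen in Ovol1/2 DKO lies outside its interval. Spint1 and Spint2 differed by 0.24 (95% interval -0.36 to 0.84) and 0.32 (95% interval -0.17 to 0.81). Their own differences between Ovol1/2 DKO and Control (-2.34 and -1.04) lie outside these intervals too.

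The other proteases had wider intervals against Control than St14. Each interval still left out that gene's difference between Ovol1/2 DKO and Control, which rests on the same Control arrays. Prss8 differed by 0.62 (95% interval -0.70 to 1.94), Tmprss2 by 0.51 (-0.40 to 1.42), Tmprss13 by 0.70 (-0.88 to 2.27) and Tmprss11e by 0.49 (-1.29 to 2.28). Tmprss4 had the widest difference, 1.46 (SE 0.72, 95% interval -0.27 to 3.19), and its replicate 2 minus replicate 1 in the Ovol1 KO-labelled group was -2.52. Tmprss4 and Spint2 were higher on both arrays labelled Ovol1 KO than on both Control arrays, as were 8.82% of all genes, and no member was lower on both. Without Control replicate 1 the differences of Prss8, Tmprss2 and Tmprss11e turned to -0.31, -0.090 and -0.76. Without replicate 1 labelled Ovol1 KO those of St14 and Tmprss13 turned to 0.020 and -0.020.

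Other genes of the pathway were counted in lists chosen by function. Of 14 other transmembrane serine proteases of the same architecture, 1 fell in Ovol1/2 DKO against Control and none rose, with a list median of -0.22. Tmprss11b, a relative of Tmprss11e, stood at 5.04 and 5.59 in Ovol1/2 DKO against 9.85 and 10.06 in Control. It fell by 4.64 (SE 0.34, limma adjusted p = 0.00464) and passed under all 15 alternatives. Against the Ovol1 KO-labelled arrays 2 of the 14 fell, Tmprss11b and Tmprss11g, and the call of Tmprss11g was lost without any 1 of the 4 arrays compared (limma adjusted p from 0.0712 to 0.219). Its call was also lost with a replicate block (limma adjusted p = 0.0555), quantile normalization (0.0539), all probe sets (0.0529) and an offset of 64 (0.161).

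Tmprss11e lies at one end of a run of 7 neighbouring protein-coding genes on chromosome 5 that are all Tmprss11 members. In the order of the annotation the log2 differences between Ovol1/2 DKO and Control were 0.25 for Tmprss11c, -3.03 for Tmprss11d, -0.28 for Tmprss11a, -1.81 for Tmprss11g, -2.94 for Tmprss11f, -4.64 for Tmprss11b and -4.59 for Tmprss11e. Of the 7, Tmprss11b and Tmprss11e passed. Control replicates 1 and 2 read 6.46 and 8.99 for Tmprss11d and 5.80 and 7.49 for Tmprss11g. Without Control replicate 1 their differences were -4.29 and -2.66, in a fit that does not count the spread between Control arrays. Whether probes of one relative also read another was not checked. Tmprss4 and Tmprss13 lie on the same chromosome with 2 protein-coding genes between them.

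Of 5 other proteases with a lipid or single-pass anchor, 1 fell and none rose against Control, at a median of -0.35. Prss27 read 5.65 and 6.65 in Ovol1/2 DKO against 9.15 and 10.82 in Control. It fell by 3.84 (SE 0.57, limma adjusted p = 0.0275), but not without Ovol1/2 DKO replicate 1 (0.121), Ovol1/2 DKO replicate 2 (0.0714) or either Ovol1 KO-labelled array (0.0532). It was again the only one of the 5 to pass against the Ovol1 KO-labelled arrays (-4.91, SE 0.57, limma adjusted p = 0.0106; 0.0674 without replicate 1 labelled Ovol1 KO).

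Of 13 measured substrates and effectors of the matriptase and prostasin cascade, 3 fell against Control and none rose, with a median of -1.56. Klk7 (5.68 and 6.90 in Ovol1/2 DKO against 9.03 and 11.83 in Control) and Scnn1a (4.59 and 5.77 against 8.25 and 10.27) did not pass. Epcam, an adhesion protein that matriptase cleaves, read 8.78 and 8.74 in Ovol1/2 DKO against 11.93 and 12.15 in Control (log2 difference -3.28, limma adjusted p = 0.00343). Cldn7, the claudin that Epcam stabilises, read 4.42 and 5.62 against 10.88 and 11.00 (-5.92, limma adjusted p = 0.00449). Scnn1g, a subunit of the sodium channel that prostasin activates, read 4.90 and 5.08 against 8.14 and 9.15 (-3.65, limma adjusted p = 0.00840). Against the Ovol1 KO-labelled arrays 4 fell, these 3 and the channel subunit Scnn1a (-5.05, SE 0.81, limma adjusted p = 0.0259). Epcam, Cldn7 and Scnn1g kept their calls with any 1 array left out in both comparisons, while Scnn1a lost it without Ovol1/2 DKO replicate 1 (0.134), Ovol1/2 DKO replicate 2 (0.0811) or replicate 1 labelled Ovol1 KO (0.120).

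Of 9 other measured inhibitors of serine proteases, 2 fell against Control and none rose, at a median of -0.094. Spink5, the Kazal inhibitor of epidermal kallikreins, read 4.40 and 5.93 in Ovol1/2 DKO against 10.30 and 10.97 in Control (log2 difference -5.47, limma adjusted p = 0.0158). Slpi, a secreted leukocyte protease inhibitor, read 7.73 and 9.23 against 11.39 and 12.39 (-3.41, limma adjusted p = 0.0314). Both lost the call without Ovol1/2 DKO replicate 1 (0.0577 for Spink5 and 0.0877 for Slpi) or Control replicate 2 (0.0552 and 0.122), and Slpi also without either Ovol1 KO-labelled array (0.0589). Spink5 and Slpi passed against the Ovol1 KO-labelled arrays too, where Spink5 lost the call without their replicate 1 (0.0585), and Slpi without either of them (0.0946 and 0.0821) or Ovol1/2 DKO replicate 1 (0.0603). In the comparison of the Ovol1 KO-labelled arrays with Control, no gene of these 4 lists passed.

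**Figure D3:**
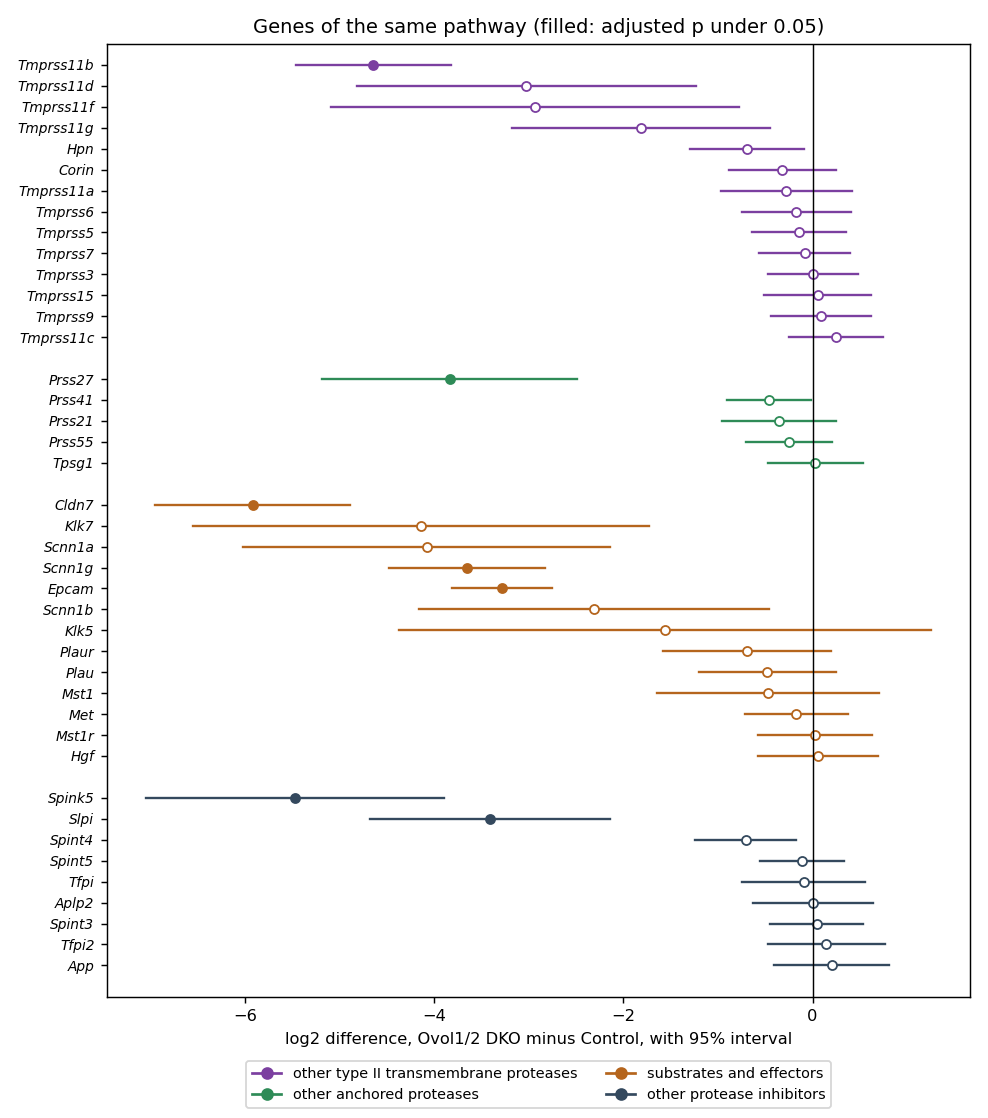
Log2 differences between Ovol1/2 DKO and Control with 95% intervals for the other genes of the pathway, ordered by size within each of 4 lists; filled points have an adjusted p under 0.05. The 7 filled points lie from -5.92 (Cldn7) to -3.28 (Epcam). Among the open points, Klk7, Scnn1a, Tmprss11d, Tmprss11f, Scnn1b, Tmprss11g and Klk5 also lie well below 0, with Control arrays far apart. Most of the rest lie close to 0.

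The genes whose levels ran most like St14 over the 6 arrays, among 9968 genes at or above the median level, were Cldn7, Slc44a1, Cnksr1, Anxa1 and Bcl2l15. Their Pearson correlations with St14 were 0.998 for each, and the spread over arrays lay mostly in the gap between the Ovol1/2 DKO arrays and the other 4. Among the members, Spint1 was most like St14 (0.986) and Tmprss4 least (0.672), and the others lay between 0.915 and 0.958. The correlation takes no account of size, and the log2 differences between Ovol1/2 DKO and Control were -5.92 for Cldn7, -1.08 for Slc44a1, a choline transporter, -4.07 for Cnksr1, -1.09 for Anxa1, a phospholipid-binding protein, and -5.11 for Bcl2l15.

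Markers of keratinocyte layers and of other cell types were read beside the members. Of 6 measured suprabasal and granular markers 3 fell in Ovol1/2 DKO against Control (Tgm1, Sprr1b and Abca12) and none rose, with a summed intensity of 1104 and 1372 in Ovol1/2 DKO against 12455 and 17689 in Control. Krt1 and Krt10, the early suprabasal keratins, differed by -0.28 and -0.23 and did not pass. Of 6 simple epithelium and Merkel cell markers 3 fell (Krt7, Krt8 and Krt19) and none rose, with sums of 3672 and 4255 against 11960 and 16135. Tgm1 and Abca12 passed under all 15 alternatives, while Sprr1b, Krt7, Krt8 and Krt19 lost the call without Control replicate 2 (limma adjusted p = 0.126, 0.112, 0.164 and 0.203), and Krt7, Krt8 and Krt19 without Ovol1/2 DKO replicate 1 as well (0.0969, 0.183 and 0.113). Krt8 also lost it without Ovol1/2 DKO replicate 2 (0.116), Krt19 without Control replicate 1 (0.0527), and Krt19 and Sprr1b without either Ovol1 KO-labelled array (0.0806 and 0.0570). Quantile normalization also ended the calls of Krt8 and Krt19. Krt19 lost its call with an offset of 1 and with all probe sets too, and kept it in 5 of the 15 alternatives. The part of these markers in the members' differences was not tested.

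Of 7 basal markers none passed against Control, with sums of 39691 and 40964 in Ovol1/2 DKO against 35172 and 33928 in Control. Among 8 fibroblast markers Thy1 rose (not without Ovol1/2 DKO replicate 1, Ovol1/2 DKO replicate 2 or Control replicate 2, at adjusted p = 0.110, 0.141 and 0.0962), the list sum was 1587 and 1994 against 894 and 1534, and 2 of the 8 were near background on every array. Thy1 alone gave 770 and 804 of the fibroblast sum in Ovol1/2 DKO against 238 and 235 in Control. None of the 7 melanocyte, 7 leukocyte, 5 mast cell and 5 endothelial markers passed in that comparison. Their sums in Ovol1/2 DKO against Control were 742 and 600 against 1158 and 1289 for melanocytes, 1518 and 2825 against 2078 and 3115 for leukocytes, 251 and 241 against 195 and 253 for mast cells, and 478 and 460 against 755 and 602 for endothelial cells. Single bright genes weigh heavily in such sums. Cd68 gave 1117 and 2368 against 1659 and 2424 of the leukocyte sum. Among endothelial markers Kdr gave 210 and 211 against 568 and 419, while Pecam1 went the other way, at 168 and 151 against 79 and 85. Of the mast cell list, whose members are mostly serine proteases of another lineage, 3 of 5 were near background on every array, as were 3 of 5 endothelial, 2 of 7 leukocyte and 1 of 7 melanocyte markers. Against the Ovol1 KO-labelled arrays the basal factor Trp63, the fibroblast marker Thy1 and the endothelial marker Pecam1 rose in Ovol1/2 DKO, 2.14-fold, 3.73-fold and 2.43-fold. Trp63 lost the call with any 1 array left out (limma adjusted p from 0.0553 to 0.284). Thy1 and Pecam1 lost it without Ovol1/2 DKO replicate 1 (0.0630 and 0.162), Ovol1/2 DKO replicate 2 (0.0780 and 0.138) or replicate 1 labelled Ovol1 KO (0.0502 and 0.0838). In the Ovol1 KO-labelled arrays the sums were 19046 and 12078 for suprabasal, 10692 and 14467 for simple epithelium, 30285 and 32671 for basal and 958 and 1506 for fibroblast markers.

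**Figure D4:**
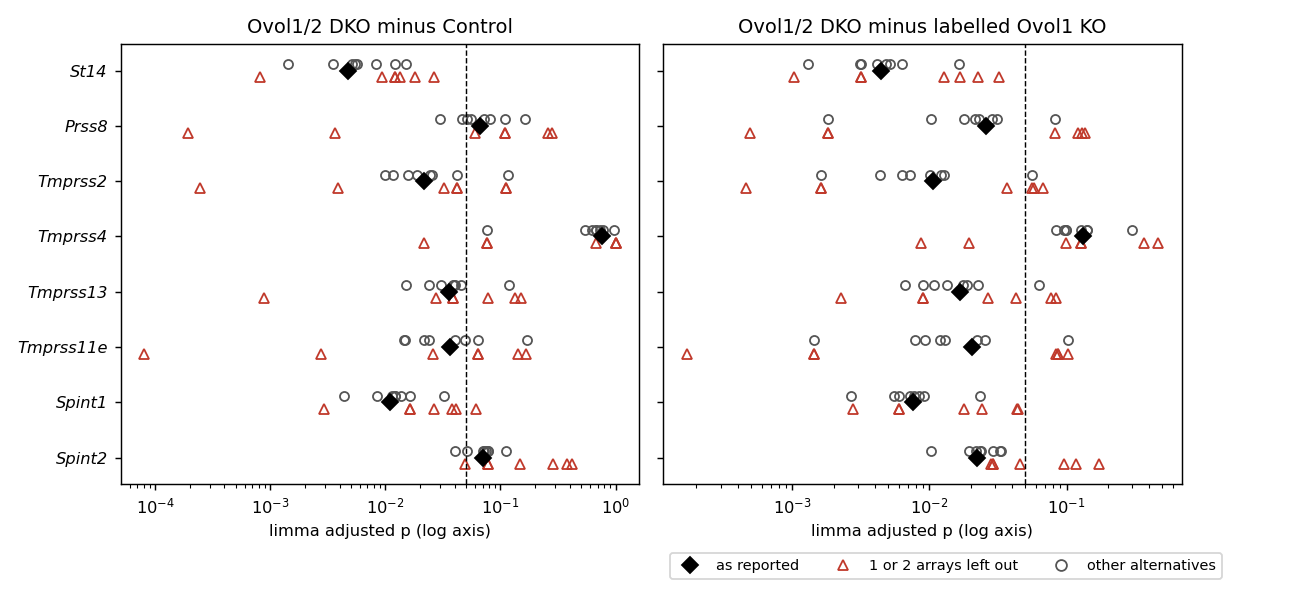
Limma adjusted p of each gene as reported (diamond), with 1 or 2 arrays left out (triangles) and under the other alternatives (circles), on a log axis with 0.05 dashed, for Ovol1/2 DKO minus Control (left) and Ovol1/2 DKO minus labelled Ovol1 KO (right). All symbols of St14 lie under 0.05 in both panels, and those of Spint1 do in the right panel.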

How the data were processed

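The authors deposited linear probe set intensity for 35556 probe sets on 6 arrays, with array medians from 103.3 to 109.8. The submitters' processing notes name Affymetrix Expression Console 1.1.1 and PLIER 2.0; how background, normalization and filters were handled is not given in the sources used here. Probe sets with 1 symbol (21789) were kept, symbols were updated by Entrez identifier against GRCm38.p6 (91 without a match), and the probe set with the highest mean was taken per gene, leaving 19938 genes. Values were used as log2(intensity + 16), so differences of dim genes are understated. One limma 3.58.1 model (R 4.3.3, lmFit, eBayes, 3 residual and 3.68 prior degrees of freedom) over all 6 arrays gave the 3 comparisons, with Benjamini-Hochberg adjustment over all genes and 0.05 as threshold. It was tested on simulated data. With 2 arrays against 2, no exact two-sided test can go below 0.333. Folds are 2 to the power of the log2 difference.

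Named were the 8 members, Ovol1 and Ovol2, up to 4 passing genes per direction from each pathway list, and the 5 genes most correlated with St14. Tmprss11 relatives, Klk5, Klk7, Scnn1a, Scnn1b and the marker, Xist and Eif2s3y genes were named after their values were seen. The members and lists were chosen with earlier results of these data known. In the lists, 6 symbols had no probe set of their own. Alternatives were a replicate block, leaving out arrays, only the groups compared, quantile normalization, offsets of 1 and 64, a filter on dim genes, an intensity trend and all probe sets.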

Additional observations from a re-analysis of the deposited data

How the results depend on the processing

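All 240 member differences of Ovol1/2 DKO under the alternatives were below 0 in both of its comparisons. Most of these signs were fixed beforehand and are no separate support. Both Ovol1/2 DKO arrays lay below all other arrays for the 8 genes, so leaving out arrays or changing the offset could not turn a sign. Against Control, the 5 members called became 1 to 6 with 1 array left out, 2 with an offset of 64 and 8 without both arrays lacking Xist signal. The 403 genes called became 99 to 455, 155 and 1395 in the same settings. Against the Ovol1 KO-labelled arrays, the 7 members called became 2 to 7 with 1 array left out and 3 with an offset of 64. The 628 genes called became 135 to 831, 311 with that offset, 1508 without both arrays lacking Xist signal and 1022 with a replicate block. An offset of 64 shrinks differences of dim genes by construction, and leaving out an array leaves fewer samples. Without both arrays lacking Xist signal, Control and the Ovol1 KO-labelled group hold 1 array each. The spread then comes from the Ovol1/2 DKO arrays alone, so counts in that setting are not comparable with the others. Other causes were not tested. Between the Ovol1 KO-labelled arrays and Control, the 0 genes called became 0 to 3 with 1 array left out and 20 without both arrays lacking Xist signal, with 0 members called in each.

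Signs turned only between the Ovol1 KO-labelled arrays and Control, where no member passed. With 1 array left out St14 ran from -0.15 to 0.020, Prss8 from -0.31 to 1.55, Tmprss2 from -0.090 to 1.11, Tmprss13 from -0.020 to 1.42 and Tmprss11e from -0.76 to 1.75. Without both arrays lacking Xist signal they were 0.061, -0.46, -0.14, -0.65 and -0.44. The cause was not tested.

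Replicate numbers are shared by the groups, but the labels tie them to no litter or day. Deviations of the replicate 1 arrays correlated at 0.194 to 0.490. The replicate block kept 5 and 7 members called and changed no member's call. Among the other named genes it ended the call of Tmprss11g against the Ovol1 KO-labelled arrays (adjusted p = 0.0555) and gave Anxa1 one against Control (0.0329). With an offset of 64 the calls of Scnn1g, Prss27, Spink5, Slpi, Sprr1b, Krt7, Krt8 and Krt19 against Control were lost (0.0534 to 0.0989), as were those of Tmprss11g, Scnn1a, Slpi and Trp63 against the Ovol1 KO-labelled arrays (0.0504 to 0.161). Of the 8 members, 4 had an Ovol1/2 DKO mean near background, where signal limits how far a fall can be read.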
